A study of Homo sapiens with 6 samples.

Results

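The immediate early factors described here are 10 genes, the AP-1 genes FOS, FOSB, FOSL1, FOSL2, JUN, JUNB and JUND and the genes EGR1, KLF4 and IER2. They were taken as every probe set whose platform annotation gives exactly 1 of these symbols, which gave 23 of the 54675 probe sets on the array. The cells were VCaP, a human line established from a metastasis of prostate cancer and carrying a TMPRSS2-ERG fusion, grown here in medium with 20% fetal calf serum. The 3 groups, of 2 arrays each, carried PRMT5 shRNA 1, PRMT5 shRNA 2 or a hairpin without a target (NTC shRNA). Doxycycline at 100 ng/ml was given to all of them over 3 days, the control hairpin included, so every comparison is between hairpins in induced cells. PRMT5 is an arginine methyltransferase. No source used here says whether the 2 arrays of a group were grown separately. The p-values therefore rest on the spread between arrays alone, which may be technical.

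Immediate early genes are transcribed within minutes of a stimulus such as serum or a growth factor, without new protein synthesis, and most of their messages decay quickly. AP-1 is a dimer of leucine zipper proteins: JUN proteins pair with each other or with FOS proteins, whereas FOS proteins need a JUN partner. EGR1 and KLF4 are zinc finger transcription factors that bind GC-rich sites, and IER2 is a small nuclear protein induced with them. ERK signalling reaches FOS and EGR1 through serum response factor and its ETS partners, which bind the serum response element, and EGR1 is known to be high in prostate tumours.

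The intensity of PRMT5 on its brightest probe set was 809.8 and 880.5 with NTC, 135.6 and 133.8 with PRMT5 shRNA 1, and 291.2 and 321 with PRMT5 shRNA 2, so both hairpins lowered their target and the first lowered it further. The prostate luminal genes checked were all above the filter (8 of 8 with a probe set). In the averaged contrast 4 of them were called higher and 3 lower, where 15.4% and 17% of all tested genes were. Among those called were KLK3, which encodes prostate-specific antigen (log2 difference 1.13), the keratins KRT8 (0.58) and KRT18 (0.27), and the homeobox factor HOXB13 (-0.28). With PRMT5 shRNA 1, 4 were higher and 3 lower (background 16.2% and 23.1%). With PRMT5 shRNA 2, 2 were higher and 0 lower (background 13.1% and 8.39%). There KRT18 (0.22) and HOXB13 (-0.093) did not pass, while HOXB13 was at -0.47 with PRMT5 shRNA 1. Of 12 stromal, endothelial and immune markers, 9 lay below the filter, at 0.1 to 11, PTPRC, CD3E and PECAM1 among them. Their summed intensity was 526.4 to 569.8 with NTC, 1137 to 1208 with PRMT5 shRNA 1 and 809.8 to 892.4 with PRMT5 shRNA 2, of which LUM, a matrix proteoglycan, made up most. LUM (0.87) and LYZ, lysozyme (1.34), were called higher in the averaged contrast and with each hairpin, with LYZ means of 27.9 in control cells, 127 under PRMT5 shRNA 1 and 69.95 under PRMT5 shRNA 2. For the ACTB controls, the 3′ signal over the 5′ signal, a sign of RNA quality, was 4.58 to 4.88 with NTC, 3.49 to 3.88 with PRMT5 shRNA 1 and 4.99 to 5.72 with PRMT5 shRNA 2. For the GAPDH controls it was 1.26 to 1.33, 1.21 to 1.23 and 1.22 to 1.23 in the same order, so both hairpins lay below NTC. The part of these in the results was not tested. In bulk RNA a change in the mix of cells and a change of RNA per cell cannot be told apart.

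The promoters of the 3 members that differed most from the control, EGR1, KLF4 and FOSL2, are printed because these genes were higher together with PRMT5 shRNA 1. Each is the 250 bases before the annotated start in RefSeq (GRCh38.p14), written 5′ to 3′ on the gene's own strand, with capitals on matches to the motifs searched. EGR1 lies at chr5:138465229-138465478 (plus strand), KLF4 at chr9:107489770-107490019 (minus strand) and FOSL2 at chr2:28392608-28392857 (plus strand).
EGR1: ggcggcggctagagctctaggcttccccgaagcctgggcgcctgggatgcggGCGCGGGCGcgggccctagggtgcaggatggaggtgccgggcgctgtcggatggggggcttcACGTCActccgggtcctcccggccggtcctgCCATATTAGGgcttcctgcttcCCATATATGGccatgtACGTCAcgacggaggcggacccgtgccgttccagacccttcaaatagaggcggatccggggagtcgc
KLF4: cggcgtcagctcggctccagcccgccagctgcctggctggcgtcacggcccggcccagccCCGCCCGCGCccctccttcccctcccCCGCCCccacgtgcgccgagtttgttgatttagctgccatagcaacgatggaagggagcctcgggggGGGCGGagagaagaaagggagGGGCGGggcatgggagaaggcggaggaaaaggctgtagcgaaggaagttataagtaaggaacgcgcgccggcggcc
FOSL2: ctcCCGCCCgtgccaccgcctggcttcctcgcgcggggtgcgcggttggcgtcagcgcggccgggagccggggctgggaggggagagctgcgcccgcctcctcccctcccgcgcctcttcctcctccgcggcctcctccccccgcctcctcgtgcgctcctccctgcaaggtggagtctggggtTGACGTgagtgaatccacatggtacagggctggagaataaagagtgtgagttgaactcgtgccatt
The motifs, searched on both strands, were the serum response element core (CArG box), TGACGT (the core of the cAMP response element), TGAGTCA (the AP-1 site), GCGNGGGCG (an EGR site), GGGCGG (the GC box of SP and KLF factors) and TATAAA. Matches were found by their letters only and are no evidence of binding. EGR1 held 2 CArG boxes, at 105 to 96 and 83 to 74 bases before the start, and 2 TGACGT matches at 136 to 131 and 67 to 62. It was the single member of 9 with a promoter in the table to hold a CArG box in this window, which 1.14% of 27305 promoters hold. GGGCGG was in 7 of the 9 members (FOS, FOSB, FOSL2, IER2, JUN, JUND and KLF4), against 42.3% of promoters. KLF4 held it at 4 places and a GCGNGGGCG match that overlaps the first of them. FOSL2 held TGACGT at 66 to 61 bases before the start and GGGCGG, on the other strand, at 247 to 242. TGACGT was in 5 of the 9 members (EGR1, FOS, FOSB, FOSL2 and JUND) against 7.42% of promoters, and GCGNGGGCG in EGR1 and KLF4 against 8.25%. TGAGTCA was in 0 of the 9, against 4.16% of promoters. TATAAA was in FOS, FOSB and JUNB, against 11.1%.

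Across the members, KLF4 and EGR1 were higher with both hairpins, FOSL2 was higher with PRMT5 shRNA 1, and JUNB was higher with PRMT5 shRNA 2. JUN was slightly higher in the averaged contrast, a call lost in 7 of 16 alternatives. JUND and IER2 did not pass the test against NTC with either hairpin, and FOS, FOSB and FOSL1 lay below the level that was tested. Values were compared as log2(intensity + 16) in limma's fit over 12413 genes, 1 probe set a gene, and a gene was called at a Benjamini-Hochberg adjusted p under 0.05. For 7 of the 10 members a probe set reached the array median in at least 2 arrays, and the probe set used for each of the 7 did so in all 6. With the mean of both hairpins 4 of these 7 were called higher (KLF4, EGR1, FOSL2 and JUN) and 0 lower, where 32.4% of all tested genes were called, 15.4% higher and 17% lower. Their median log2 difference was 0.24, beside -0.015 over all tested genes. With PRMT5 shRNA 1, 3 members were called higher and 0 lower, where 39.3% of genes were called, 16.2% higher and 23.1% lower. With PRMT5 shRNA 2, 4 were called higher and 0 lower, where 21.4% of genes were called, 13.1% higher and 8.39% lower. These comparisons share the NTC arrays. The members were chosen with earlier results of these data known, so an excess over the shares of all genes is not independent support.

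**Figure D1:**
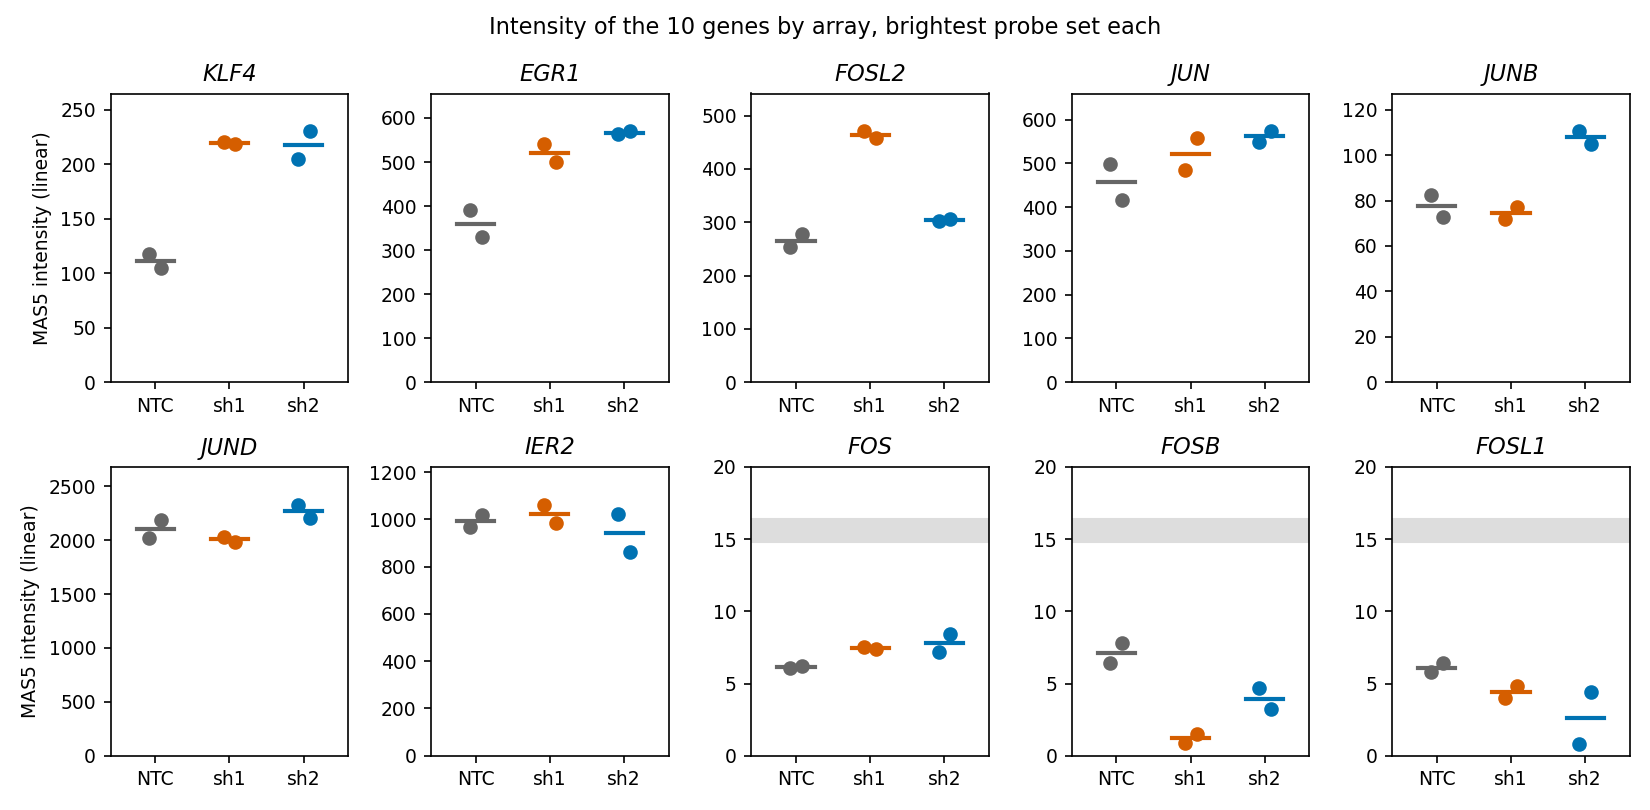
Intensity (MAS5 signal, linear axis from 0) of each of the 10 genes on its brightest probe set, in NTC, PRMT5 shRNA 1 (sh1) and PRMT5 shRNA 2 (sh2) arrays; points are single arrays and lines the mean of 2, and the grey band is the range of the array medians, 14.8 to 16.4. KLF4 and EGR1 are higher in all 4 knockdown arrays, FOSL2 stands out with sh1 and JUNB with sh2, and FOS, FOSB and FOSL1 stay below the band.

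KLF4, a factor of epithelial differentiation that restrains the cell cycle in many epithelia, had the largest difference of the members. Its intensity was 117.2 and 104.4 with NTC, 219.9 and 218.6 with PRMT5 shRNA 1, and 205.1 and 230.2 with PRMT5 shRNA 2. All 4 knockdown arrays lay above both controls, as they did for 18.7% of tested genes and also for FOSL2 and EGR1. The hairpins overlapped for KLF4. Arrays of 1 hairpin lay above both controls for 31.1% of genes under PRMT5 shRNA 1 and 32.2% under PRMT5 shRNA 2. KLF4 thus stood at 198% of the control mean under PRMT5 shRNA 1 and at 196% under PRMT5 shRNA 2. The log2 difference was 0.89 ± 0.09 (SE) with PRMT5 shRNA 1 (limma, adjusted p = 3.5e-05) and 0.88 ± 0.09 with PRMT5 shRNA 2 (adjusted p = 5.8e-05), and KLF4 ranked 316 of 12413 genes by the absolute size of its averaged difference. Between hairpins it differed by -0.012, with a 95% interval of -0.22 to 0.19. The dimmer probe set read 19.9 and 27.1 with NTC, 45.3 and 53.1 with PRMT5 shRNA 1 and 37 and 51.6 with PRMT5 shRNA 2. It was called with each hairpin as well (0.73 ± 0.14 and 0.61 ± 0.14, SE, limma over probe sets, adjusted p = 0.0027 and 0.014).

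EGR1, whose promoter carries the CArG boxes shown above, was next. Its intensity was 390.9 and 329.5 with NTC, 541.2 and 499.2 with PRMT5 shRNA 1, and 563.2 and 570.1 with PRMT5 shRNA 2. Both hairpin groups were clear of the controls, and the PRMT5 shRNA 2 arrays also lay above those of PRMT5 shRNA 1. EGR1 was at 144% of control under PRMT5 shRNA 1 and 157% under PRMT5 shRNA 2, with log2 differences of 0.51 ± 0.09 (SE, limma, adjusted p = 0.00089) and 0.64 ± 0.09 (adjusted p = 0.00034). The difference between hairpins did not pass on this probe set (0.12, 95% interval -0.07 to 0.31). The second tested probe set read 361.5 and 346.4, then 486.4 and 461, then 534 and 575.6, in the same order of groups. There the hairpins did differ, by 0.22 ± 0.07 (SE, limma over probe sets, adjusted p = 0.044). The remaining EGR1 probe set stayed between 4.6 and 8.1 on all arrays, below the filter. The EGR1 probe sets are of the _s_at kind, as are both of KLF4, a type that can match more than 1 transcript.

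Of the FOS genes, only FOSL2 had a probe set above the filter. FOSL2 (FRA2) lacks the strong activation domain of FOS and is the more slowly induced member of the family. Its brightest probe set read 252.7 and 278.2 with NTC, 470.8 and 457.5 with PRMT5 shRNA 1, and 301.6 and 305.1 with PRMT5 shRNA 2. The groups did not overlap, but PRMT5 shRNA 2 lay just above the controls. FOSL2 was at 175% of control with the first hairpin (0.77 ± 0.08, SE, limma, adjusted p = 2.3e-05) and at 114% with the second, which did not pass (0.18 ± 0.08, adjusted p = 0.11). The difference between the hairpins passed, with PRMT5 shRNA 2 lower by 0.59 on the log2 scale (95% interval -0.75 to -0.42, limma, adjusted p = 0.00089). With its probe sets averaged the difference between hairpins was -0.28 (limma, adjusted p = 0.019). The averaged call (0.48 ± 0.07) was lost when both hairpins were treated as 1 group (adjusted p = 0.14), since the spread then holds the difference between them. A second FOSL2 probe set read 55.4 and 57.6 with NTC, 93.1 and 90.9 with PRMT5 shRNA 1 and 65.7 and 78.5 with PRMT5 shRNA 2. It was called with PRMT5 shRNA 1 (0.58 ± 0.11, SE, adjusted p = 0.0018) and not with PRMT5 shRNA 2 (0.28 ± 0.11, adjusted p = 0.094), and its difference between hairpins did not pass (-0.30 ± 0.11, limma over probe sets, adjusted p = 0.059). The last tested probe set, at 18.5 to 30.5, did not pass with either hairpin, and 2 more lay below the filter.

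FOS itself, the founding member of AP-1, read 6.1 and 6.2 with NTC, 7.5 and 7.4 with PRMT5 shRNA 1 and 7.2 and 8.4 with PRMT5 shRNA 2. FOSB read 6.4 and 7.8, then 0.9 and 1.5, then 4.7 and 3.2. FOSL1 (FRA1) read 5.8 and 6.4, then 4 and 4.8, then 0.8 and 4.4. Each has a single probe set, and all these values are below every array median (14.8 to 16.4), so no level or fold is drawn from them.

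JUN, the strongest activator of the JUN proteins, has 4 tested probe sets. The brightest read 498.6 and 416.1 with NTC, 485.4 and 558.8 with PRMT5 shRNA 1, and 549.8 and 573.8 with PRMT5 shRNA 2. PRMT5 shRNA 1 overlapped the controls and PRMT5 shRNA 2 lay above them. The averaged difference was 0.24 ± 0.08 (SE, limma, adjusted p = 0.044), with 0.19 ± 0.09 for PRMT5 shRNA 1, which did not pass, and 0.29 ± 0.09 for PRMT5 shRNA 2 (adjusted p = 0.048). The averaged call was lost without NTC replicate 2 (0.11, limma, adjusted p = 0.43), PRMT5 shRNA 1 replicate 2 (0.19, adjusted p = 0.12), PRMT5 shRNA 2 replicate 1 (0.25, adjusted p = 0.059) or PRMT5 shRNA 2 replicate 2 (0.22, adjusted p = 0.080), and with both hairpins as 1 group (adjusted p = 0.17). The call with PRMT5 shRNA 2 was lost in 7 of 15 alternatives, and without NTC replicate 2 its value was 0.17 (limma, adjusted p = 0.33). Adjusted over all probe sets instead, the difference with PRMT5 shRNA 2 missed the threshold on this probe set (adjusted p = 0.053) and passed on 2 others, at 0.34 ± 0.07 (SE, adjusted p = 0.0061) and 0.27 ± 0.08 (adjusted p = 0.039). Both of these lay above the controls in all 4 knockdown arrays, at 340.5 to 411.2 against 319.4 and 322.9, and at 266.9 to 314.3 against 243.2 and 255.2. The fourth probe set went the other way with PRMT5 shRNA 1: it read 116.2 and 155.7 with NTC, 96.8 and 109.1 with PRMT5 shRNA 1, and 169.7 and 155.1 with PRMT5 shRNA 2. It was called lower there (-0.34 ± 0.12, SE, limma over probe sets, adjusted p = 0.0496), so the probe sets of JUN disagree for that hairpin.

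JUNB, which opposes JUN in many settings, read 82.3 and 72.9 with NTC, 71.7 and 77.2 with PRMT5 shRNA 1, and 110.6 and 105.1 with PRMT5 shRNA 2. The first hairpin overlapped the controls and the second stood above all other arrays, at 139% of control. JUNB rose with PRMT5 shRNA 2 (0.41 ± 0.10, SE, limma, adjusted p = 0.014), was at -0.048 ± 0.10 with PRMT5 shRNA 1, and was higher with the second hairpin than with the first by 0.45 ± 0.10 (adjusted p = 0.0090). The call against NTC was lost without NTC replicate 2 (0.33, limma, adjusted p = 0.12) or PRMT5 shRNA 2 replicate 1 (0.37, adjusted p = 0.066), and the call between hairpins without PRMT5 shRNA 1 replicate 1 (0.41, adjusted p = 0.058). The ACTB 3′ to 5′ ratio was likewise highest with PRMT5 shRNA 2, while that of GAPDH was highest with NTC, and their part in this difference was not tested.

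JUND, the JUN protein that is present without a stimulus in most cells, read 2024 and 2192 with NTC, 2032 and 1988 with PRMT5 shRNA 1, and 2331 and 2207 with PRMT5 shRNA 2. PRMT5 shRNA 1 overlapped the controls and PRMT5 shRNA 2 lay just above them, at 95.4% and 108% of control. Neither hairpin passed against NTC, and the averaged difference was 0.020 with a 95% interval of -0.09 to 0.13. The hairpins differed by 0.17 ± 0.06 (SE, limma, adjusted p = 0.048), beside a median of 0.058 over all genes in that contrast. This call was lost in 10 of 14 alternatives, among them the omission of any 1 of the 6 arrays (adjusted p = 0.0503 to 0.19). The other 3 JUND probe sets were dim (8.2 to 37.1) and passed in no contrast.

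IER2 read 968.8 and 1018 with NTC, 1063 and 985.1 with PRMT5 shRNA 1, and 1023 and 861.4 with PRMT5 shRNA 2. All groups overlapped. Its differences were 0.043 ± 0.08 (SE) and -0.079 ± 0.08, and the 95% interval of the averaged difference was -0.17 to 0.14.

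**Figure D2:**
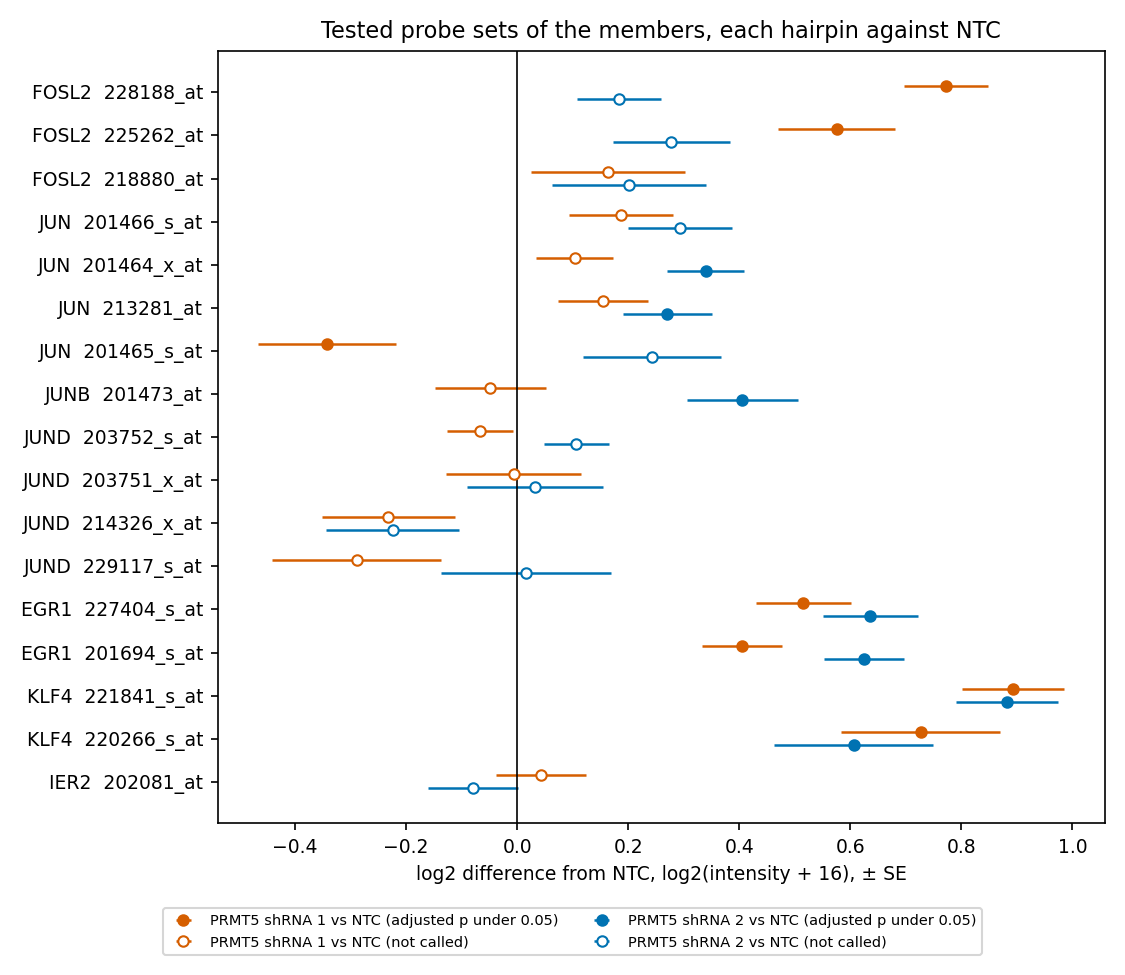
Log2 difference from NTC, on the log2(intensity + 16) scale with its SE, for the 17 tested probe sets of the members, with PRMT5 shRNA 1 in orange and PRMT5 shRNA 2 in blue; filled points passed limma's adjusted p under 0.05 over all probe sets and open points did not. Both KLF4 and both EGR1 probe sets are filled for each hairpin, 2 FOSL2 probe sets only for PRMT5 shRNA 1, and 1 JUN probe set lies at -0.34 with PRMT5 shRNA 1.

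Over the 17 tested probe sets, 9 were called higher with the mean of both hairpins and 0 lower, where 13.5% and 14.7% of the 28644 probe sets tested were. With PRMT5 shRNA 1 the counts were 6 higher and 1 lower (background 17.5% and 19%), and with PRMT5 shRNA 2 they were 7 higher and 0 lower (background 9.38% and 8.63%). Probe sets of 1 gene measure the same message, so these are not independent counts. Between the hairpins 3 of the 7 members were called, FOSL2 lower and JUNB and JUND higher with PRMT5 shRNA 2, where 25.7% of genes were called, 7.38% lower and 18.3% higher. Over probe sets 4 were higher and 1 lower in that contrast (background 13.1% and 12.7%), and the JUND probe set missed the threshold (limma, adjusted p = 0.0504).

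**Figure D3:**
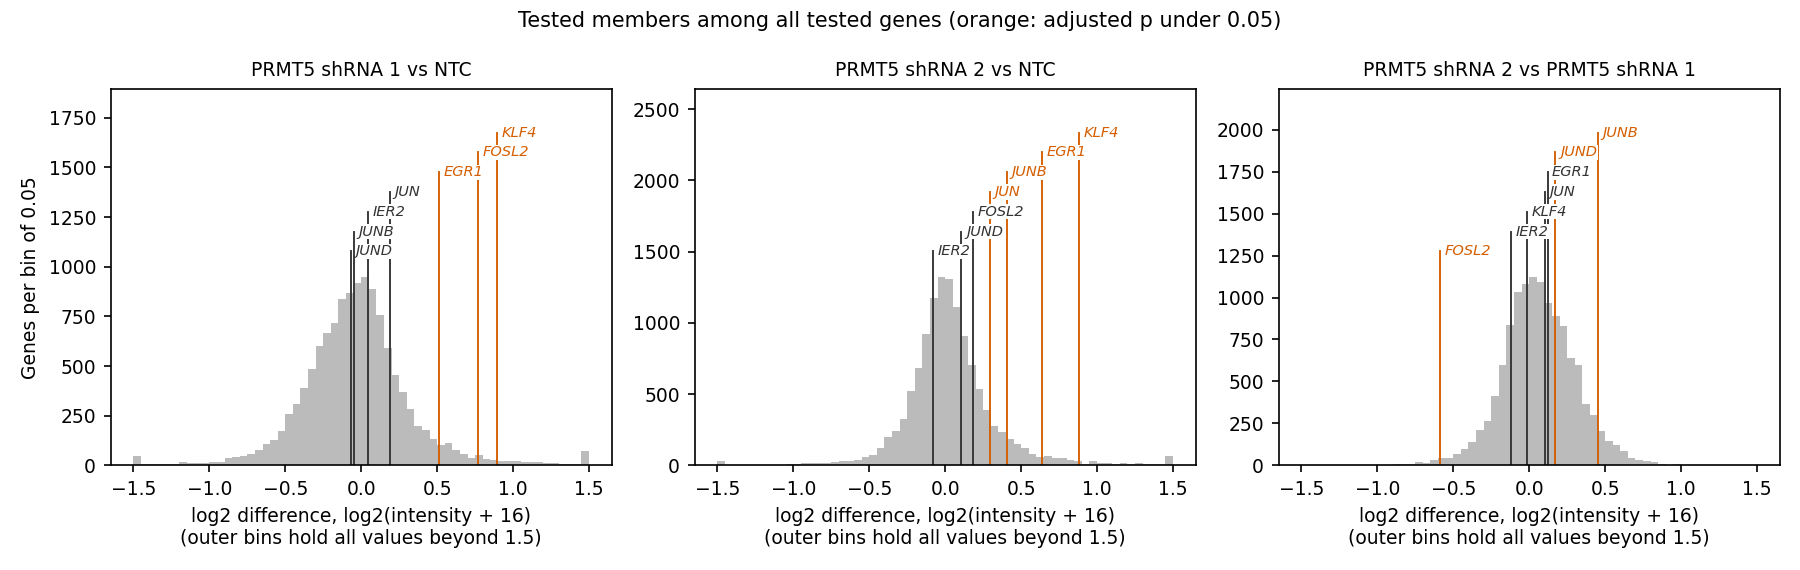
Histograms of the log2 differences of all 12413 tested genes (genes per bin of 0.05, values beyond 1.5 held in the outer bins) for each hairpin against NTC and for the hairpins against each other, with the 7 tested members as vertical lines, orange where limma's adjusted p was under 0.05. KLF4 lies at 0.89 and 0.88 in the left and middle panels, and FOSL2 at -0.59 on the right.

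The genes whose pattern was most like that of KLF4 and EGR1 were sought by the root mean square difference over the 6 arrays, each gene taken as its log2 deviations from its own NTC mean. For KLF4 these were NOX1, an NADPH oxidase (0.057), SPINK1, a secreted trypsin inhibitor (0.058), and SERPINI1, a serine protease inhibitor (0.058). For EGR1 they were POU5F1B (0.032), QTMAN (0.057) and SEC16B (0.059). NOX1, POU5F1B and SEC16B had NTC means of 9.55, 9.70 and 3.90, below the array medians, so their likeness rests on dim signals. These genes passed the filter through the knockdown arrays, so the filter itself favoured a rise in them.

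The genes around the members were read from lists that leave out the 10 members, and their counts stand beside the 15.4% of all tested genes called higher and 17% called lower in the averaged contrast. The lists were written with earlier results of these data known, so an excess over these shares is not independent support. Of the AP-1 partners, which pair with FOS or JUN proteins or bind related sites, 9 of 16 were tested, with 4 called higher and 2 lower in the averaged contrast, and a median log2 difference of 0.11. ATF3, a stress-induced repressor (0.88 ± 0.11, SE), and the small MAF protein MAFF (0.69 ± 0.07) rose, and MAF fell (-0.81 ± 0.09). ATF3 reached the array medians in the knockdown arrays and not in every control array, so its size depends on the pseudocount (1.41 with 1, 0.41 with 64). BATF was also called (0.44 ± 0.14, limma, adjusted p = 0.035), but not with PRMT5 shRNA 2 alone (0.35, adjusted p = 0.16). Its averaged call was lost in 6 of 15 alternatives, with values from 0.18 to 0.78 over all 15. Among the losses were the fits without either NTC array (0.52 and 0.35), PRMT5 shRNA 1 replicate 1 (0.33) or PRMT5 shRNA 2 replicate 1 (0.35). In control cells ATF3 and BATF had means of 14.7 and 12.9, near or below the array medians. BATF, 1 of the 4 called higher, thus passed the filter through the knockdown arrays.

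Of 34 other immediate early genes, 24 were tested, with 11 higher, 2 lower and 11 not passing in the averaged contrast. Their median was 0.17, against -0.015 over all tested genes. With PRMT5 shRNA 1, 12 were higher and 2 lower, where 16.2% and 23.1% of all tested genes were. With PRMT5 shRNA 2, 11 were higher and 1 lower, where 13.1% and 8.39% were. ID1, an inhibitor of helix-loop-helix factors that is also a BMP target, rose by 2.08 ± 0.08 (SE). Its intensity was 135 ± 16.8 in control cells, 733 ± 15.4 under PRMT5 shRNA 1 and 529 ± 51.6 under PRMT5 shRNA 2 (SD, n = 2 each). SGK1, a serum-induced kinase, rose by 0.58 ± 0.08 (SE), and ATF3 and MAFF stand in this list too. EGR3, EGR4, NR4A3, ARC, GEM and PTGS2, all classic immediate early genes, stayed below the filter, with no array above 11.1.

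Of the other KLF and SP factors, which share the zinc fingers of KLF4, 18 of 24 were tested. In the averaged contrast 9 were higher and 2 lower, with a median of 0.12. With PRMT5 shRNA 1, 9 were higher and 2 lower (median 0.19), where 16.2% and 23.1% of all tested genes were. With PRMT5 shRNA 2, 6 were higher, 1 lower and 11 not called (median -0.030), where 13.1% and 8.39% of genes were higher and lower. KLF7 rose by 1.38 ± 0.08 (SE). Its intensity was 169 ± 15.8 in control cells, 547 ± 33.2 under PRMT5 shRNA 1 and 399.6 ± 29.0 under PRMT5 shRNA 2 (SD, n = 2 each). SP8 (1.06 ± 0.09, SE), KLF9, a glucocorticoid-induced factor (0.87 ± 0.07), and SP6 (0.49 ± 0.10) rose as well. SP8 was at 1.48 with PRMT5 shRNA 1 and 0.64 with PRMT5 shRNA 2, and differed between hairpins (limma, adjusted p = 0.00070). Without NTC replicate 1 the list had 5 called higher and 1 lower.

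Upstream, 13 of 15 serum response and CREB factors were tested and 1 was called, with a median of -0.049. This was ELK3, an ETS partner of serum response factor (0.26 ± 0.09, SE, limma, adjusted p = 0.041), which read 0.51 with PRMT5 shRNA 2 and 0.0047 with PRMT5 shRNA 1. Without NTC replicate 1 or 2, PRMT5 shRNA 1 replicate 1 or 2, or PRMT5 shRNA 2 replicate 2 its averaged call was lost (0.22 to 0.30). Of 27 MAP kinases and their regulators and effectors, 20 were tested, with 1 higher and 5 lower, a share near the 32.4% called over all genes. MAPK11, a p38 kinase (-0.68 ± 0.09), and RPS6KA5, the kinase MSK1 that phosphorylates CREB and histone H3 (-0.54 ± 0.11), fell, while RPS6KA2 rose (0.52 ± 0.10). MAP2K6, an activator of p38, was called in the averaged contrast (-0.37 ± 0.07) and with PRMT5 shRNA 1 (-0.51), did not pass with PRMT5 shRNA 2 (-0.22, limma, adjusted p = 0.076), and differed between hairpins (adjusted p = 0.028). Its averaged call was lost with both hairpins as 1 group (adjusted p = 0.088). MAPK11 was no longer called when its probe sets were averaged (-0.29, limma, adjusted p = 0.052) or when _x_at and _s_at probe sets were left out (-0.22, adjusted p = 0.14).

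Of 22 corepressors, ubiquitin ligases and mRNA decay factors that act on immediate early genes or their messages, 20 were tested, with 4 higher and 3 lower. ZFP36, which binds AU-rich messages for decay, rose by 0.53 ± 0.08 (SE), NAB2, the corepressor and target of EGR1, by 0.52 ± 0.12, and ZFP36L1 by 0.49 ± 0.07, while ZFP36L2 fell (-0.50 ± 0.05). NAB2 lost its call without NTC replicate 1 (0.30, limma, adjusted p = 0.12) and ZFP36L2 when its probe sets were averaged (-0.17, adjusted p = 0.12). ZFP36L1 was called with PRMT5 shRNA 1 (0.81) and not with PRMT5 shRNA 2 (0.17).

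The genes reported as targets of the members moved both ways. Of 20 reported AP-1 targets, only 8 were tested, with 3 higher and 1 lower, and the collagenase MMP1, the urokinase gene PLAU and TIMP1 were among 11 below the filter. MT2A, a metallothionein, rose (0.42 ± 0.05, SE), and the growth factor HBEGF fell (-0.83 ± 0.08). HBEGF was at -1.20 with PRMT5 shRNA 1 and -0.47 with PRMT5 shRNA 2, and differed between hairpins (limma, adjusted p = 0.00076). HMOX1, heme oxygenase, and the chemokine CXCL8 were called in the averaged contrast and with PRMT5 shRNA 1, and not with PRMT5 shRNA 2. HMOX1 had means of 5.55, 20.7 and 11.4 with NTC, PRMT5 shRNA 1 and PRMT5 shRNA 2, so it passed the filter through PRMT5 shRNA 1, and its averaged difference (0.55) was 1.30 with a pseudocount of 1 and 0.20 with 64. CXCL8 was at 0.53 with PRMT5 shRNA 1 and 0.079 with PRMT5 shRNA 2 (limma, adjusted p = 0.68), with a difference between hairpins (adjusted p = 0.017) and an averaged value of 0.30 ± 0.10. CXCL8 lost its averaged call without either NTC array (0.30 and 0.31), PRMT5 shRNA 1 replicate 2 (0.26) or PRMT5 shRNA 2 replicate 1 (0.27). Of 15 reported EGR1 targets, 11 were tested, with 4 higher and 2 lower. ATF3, NAB2 and the angiogenic factor VEGFA (0.81 ± 0.09) rose, and F3, tissue factor, fell (-0.80 ± 0.06). Of 16 reported KLF4 targets, 11 were tested, with 4 higher and 1 lower. The keratin KRT19 (1.26 ± 0.09), the cyclin-dependent kinase inhibitors CDKN1C (0.55 ± 0.09) and CDKN1A (0.54 ± 0.08) and the junction protein JUP (0.51 ± 0.08) rose. CDKN1A, the best known KLF4 target, was at 0.024 with PRMT5 shRNA 1 and at 1.05 with PRMT5 shRNA 2, where KLF4 itself stood at 0.89 and 0.88. The relation of CDKN1A to KLF4 was not tested. The medians of the AP-1, EGR1 and KLF4 target lists were 0.14, -0.0083 and 0.11.

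**Figure D4:**
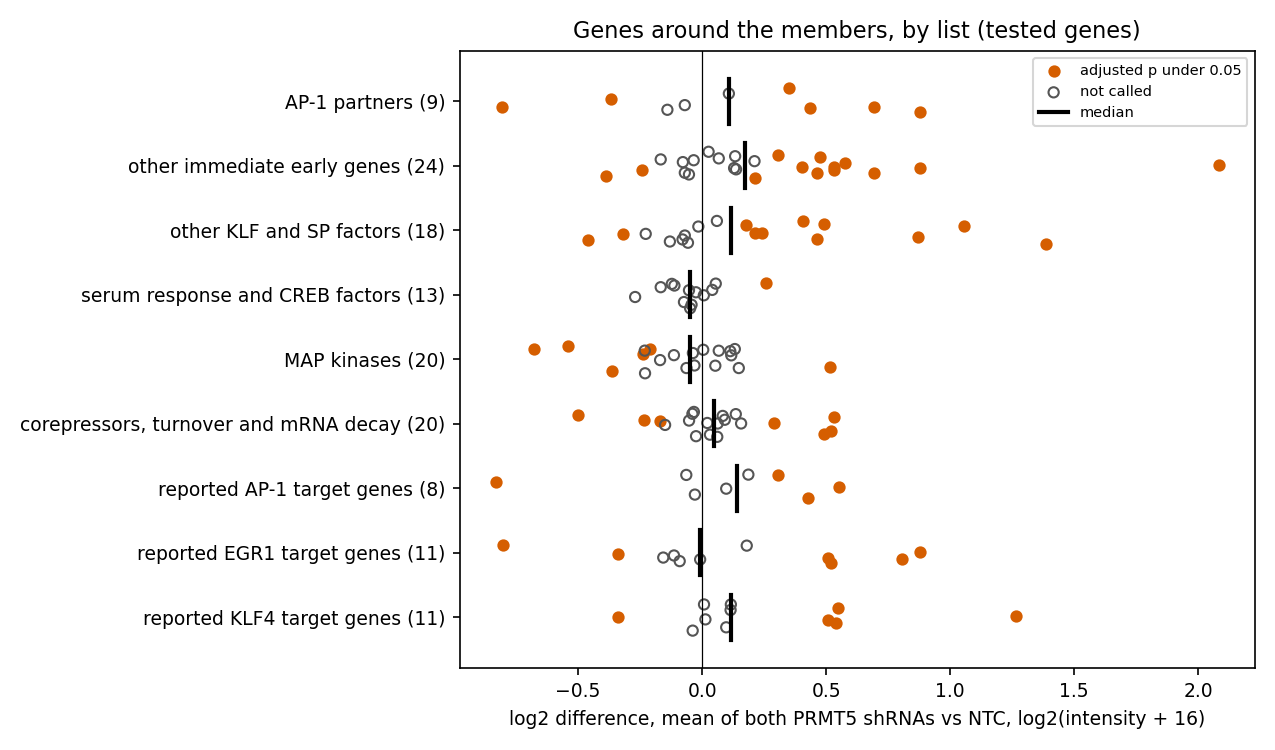
Log2 difference of the mean of both PRMT5 shRNAs from NTC, on the log2(intensity + 16) scale, for the tested genes of each list around the members; orange points passed limma's adjusted p under 0.05 over all genes, open points did not, black bars are medians, and numbers in parentheses are genes tested. ID1, at 2.08, is the farthest to the right, and the serum response and CREB factors hold 1 called gene.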

How the data were processed

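The deposited values are MAS5 probe set intensities on a linear scale, per the submitters' processing notes; its version was not given in the sources used here. The 2% trimmed mean was about 150 in each deposited column, so the arrays had been scaled alike. RNA was isolated on columns, amplified and biotin-labelled, per the labels' protocols. Probe sets were named through the platform annotation, with 41037 of 41091 single-symbol ones matched by Entrez ID to RefSeq (0 symbols changed). The 62 control probe sets were left out. A probe set was kept if it reached its array's median in at least 2 of 6 arrays, and the brightest kept one stood for a gene. Log2(intensity + 16) was fitted with limma 3.58.1 in R 4.3.3 (trend, 1 coefficient per group, 3 residual degrees of freedom, prior 7.89), over genes and again over probe sets, after a test on simulated data; all tests are two-sided. The members and lists were chosen with earlier results of these data known. Named were all members, up to 4 called genes with the largest differences per list, PRMT5 and the 3 genes most like each of the top 2 members. The number of value columns matching no sample was 0. The number of arrays limits the precision. The 16 alternatives covered pseudocounts, filters, normalization, probe set choice, the replicate block, the trend, pooled hairpins and omitted arrays.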

Additional observations from a re-analysis of the deposited data

Results flagged for a closer look

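3 members differed between the hairpins in the contrast of PRMT5 shRNA 2 with PRMT5 shRNA 1, which tests the difference itself. FOSL2 was lower with PRMT5 shRNA 2 by a log2 difference of -0.59 (95% interval -0.75 to -0.42) and kept this call under all 15 alternatives run for it, with a value of -0.28 when its probe sets were averaged. JUNB was higher by 0.45 (0.23 to 0.67) and kept the call in 14 of 15. JUND was higher by 0.17 (0.05 to 0.30) and kept it in 4 of 14. PRMT5 itself was higher with PRMT5 shRNA 2 by 1.09 ± 0.08 (SE, limma, adjusted p = 8.0e-05), so the hairpins differ in knockdown as well as in sequence, and these cannot be told apart.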

How the results depend on the processing

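Of the values of the tested members under the alternatives, 372 kept their direction and side of the threshold, 28 lost a call, 3 gained one and 12 changed sign, none of the latter called in either setting. KLF4 and EGR1 kept their calls with each hairpin under every alternative in which they could be tested. Without _x_at and _s_at probe sets KLF4, EGR1 and JUND could not be tested, which leaves 4 members, and 2 were called in the averaged contrast, 1 with PRMT5 shRNA 1 and 2 with PRMT5 shRNA 2. With both hairpins as 1 group 2 members and 1501 genes were called, against 4 and 4016. With 1 array left out, where the lone array of its group is assumed to vary like the others, 3 to 4 members and 2200 to 4248 genes were called in the averaged contrast. The ranges were 3 to 4 and 3180 to 5283 for PRMT5 shRNA 1, 2 to 4 and 1561 to 2443 for PRMT5 shRNA 2, and 1 to 3 and 1333 to 2808 between hairpins. The values that changed sign were small. For JUND they were -0.020 (quantile normalization), -0.083 (mean over probe sets) and -0.037 (without NTC replicate 1) in the averaged contrast, and -0.018 with PRMT5 shRNA 2 (mean over probe sets); with 1 array left out the averaged value ran from -0.037 to 0.077. With 1 array left out, IER2 ran from -0.079 to 0.043 in the averaged contrast (above 0 at 0.017, 0.0085 and 0.043), from -0.011 to 0.096 with PRMT5 shRNA 1, from -0.20 to 0.043 with PRMT5 shRNA 2 and from -0.24 to 0.00017 between hairpins. JUNB with PRMT5 shRNA 1 ran from -0.12 to 0.024, and KLF4 between hairpins from -0.089 to 0.066. The cause was not tested. The replicate numbers gave no sign of pairing the arrays. Deviations of same-numbered arrays correlated at -0.09 and -0.0045 for 2 pairs of groups and at -0.18 for NTC with PRMT5 shRNA 2. With 2 arrays a group this cannot exclude a preparation shared by replicate number. With the replicate number as a block 4 members (3705 genes) were called in the averaged contrast, 3 (4559) with PRMT5 shRNA 1, 3 (2435) with PRMT5 shRNA 2 and 2 (2829) between hairpins. With the NTC numbers crossed, an alternative chosen after seeing the data, 4 members and 3155 genes were called with PRMT5 shRNA 2. PRMT5 and the genes named from the lists, 36 genes outside the members, were run under the alternatives in the averaged contrast only. Their 560 values held 36 lost calls and 0 changes of sign. Their values for single hairpins and between hairpins, and the genes most like KLF4 and EGR1, were not run under the alternatives. With no filter on dim probe sets 10 members were tested, and 3 were called higher and 1 lower in the averaged contrast. FOSB was the lower one (log2 difference -0.32, limma, adjusted p = 0.017), from intensities below every array median. Signal over background limits FOS, FOSB and FOSL1.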
